A study of Homo sapiens with 4 samples.

Results

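Receptor-type protein tyrosine phosphatases were examined in the ovarian carcinoma cell line OVCAR-3, through 10 genes of the family: PTPRR, PTPRM, PTPRA, PTPRE, PTPRF, PTPRG, PTPRJ, PTPRK, PTPRS and PTPRU. A row of the value table belonged to a gene where the platform annotation gave its symbol. This found 9 of the 10 genes, of 20172 distinct symbols in the annotation, and 8 of them had a transcript cluster (the array's unit of measurement, a set of probes summarised as 1 value) to themselves. The only cluster for PTPRA is annotated to VPS16 as well and is given below as the VPS16/PTPRA cluster. No row carried the symbol PTPRJ, and that gene was not analysed here. The list was selected on the log2 differences between these same arrays, which were known when it was drawn up. The differences of its members are therefore a description and are given without a test of their own.

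The series compared OVCAR-3 cells transfected with a vector lacking H1.3 (2 arrays) with OVCAR-3 cells labelled as overexpressing human H1.3, a linker histone (2 arrays). All cells grew in RPMI-1640 with fetal bovine serum and antibiotics, and the replicates are called biological. The labels do not tell whether each replicate was its own transfection or clone, and p-values cover only the variation among these arrays. An (H) in the titles of the H1.3 group is left unexplained by the labels. Values are log2 expression levels, and a difference is always the H1.3-labelled group minus the vector-only group, with the standard error (SE) of the limma fit.

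A receptor-type tyrosine phosphatase spans the cell membrane once, with an extracellular region that resembles an adhesion molecule in many members and a cytoplasmic catalytic region that removes phosphate from tyrosine residues. Most members carry a membrane-proximal catalytic domain followed by a distal domain with little or no activity. These enzymes counteract tyrosine kinases, and in epithelial cells several of them sit at cell contacts, where cadherin complexes are among their partners.

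The arrays carried the pattern of an epithelial ovarian carcinoma line, and the targeted gene did not follow its label. Of 14 ovarian carcinoma and epithelial markers, 12 lay at or above the median of the named clusters (6.84) on every array, among them PAX8, MUC16, EPCAM and WT1. The mean level of that list was 10.25 and 10.11 on the vector-only arrays and 9.97 and 10.003 on the H1.3-labelled arrays. FOLR1, the folate receptor alpha gene, fell by 1.26 ± 0.15 (SE, adjusted limma p 0.0291). That call was lost when any 1 array was left out, as were the calls of all other clusters. The other 13 markers were not called, with 8 of the 14 differences negative. The part of these markers in the differences below was not tested. A level at or above 6.84 on every array was found for 0 of 9 leukocyte, 1 of 8 fibroblast, 1 of 8 endothelial and 0 of 8 neural markers. The mean level of the leukocyte list was 5.05 and 5.10 on the vector-only arrays and 5.26 and 5.06 on the arrays labelled H1.3. The mean level was 5.11 and 5.29 against 5.25 and 5.12 for fibroblast markers, 5.51 and 5.53 against 5.55 and 5.49 for endothelial markers, and 5.31 and 5.46 against 5.52 and 5.41 for neural markers. H1-3, the gene for H1.3, measured 8.65 and 7.88 on the vector-only arrays and 7.47 and 7.69 on the arrays labelled H1.3. Its difference was -0.69 ± 0.24 (SE), with an adjusted limma p of 0.319, and all directions therefore rest on the labels. The sources used here do not tell whether its probes read the transfected sequence.

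Within the family, PTPRR was higher and PTPRM lower in the arrays labelled H1.3, and the other 7 measured members differed by at most 0.16 on the log2 scale. PTPRR encodes a phosphatase with a single catalytic domain and a kinase interaction motif through which it binds and dephosphorylates ERK-type MAP kinases. Its level was 4.99 and 5.24 on the vector-only arrays and 6.88 and 6.99 on the arrays labelled H1.3. The groups were 1.82 ± 0.13 (SE) apart, a 3.53-fold difference, whereas replicates lay 0.25 and 0.11 apart. PTPRR was thus higher in all 4 pairings of an array labelled H1.3 with a vector-only array, and its difference ranked 13 from the top among 21214 clusters.

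PTPRM encodes RPTP-mu, an adhesive phosphatase that binds to the same protein on a neighbouring cell and associates with cadherins. Its level was 6.72 and 6.76 on the vector-only arrays and 5.28 and 5.35 on the arrays labelled H1.3. The difference was -1.43 ± 0.11 (SE), a 2.69-fold lower level, with replicates 0.04 and 0.07 apart. PTPRM was lower in all 4 pairings of arrays, and its difference ranked 28 from the bottom.

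The calls follow an adjusted p under 0.05 in limma over all 21214 clusters with a symbol. By that rule 1 of the 9 measured members was higher, where 0.24% of all clusters were called higher, and 1 was lower, where 0.264% of all clusters were called lower. The comparison had served to choose the members, and nothing is read from these shares. Leaving out any 1 array put the difference of PTPRR between 1.695 and 1.945 and that of PTPRM between -1.46 and -1.39. Both calls were lost in each such fit, as were those of all other clusters. Without variance moderation 0 members were called, where 6 clusters were called higher and 3 lower. With the clusters lacking a symbol tested too, 0 members were called, where 1 cluster was called higher and 3 lower. Averaged over the 4 arrays both genes stood at 6.03, under the named-cluster median of 6.84, and detection calls or probe intensities were not used here.

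**Figure D1:**
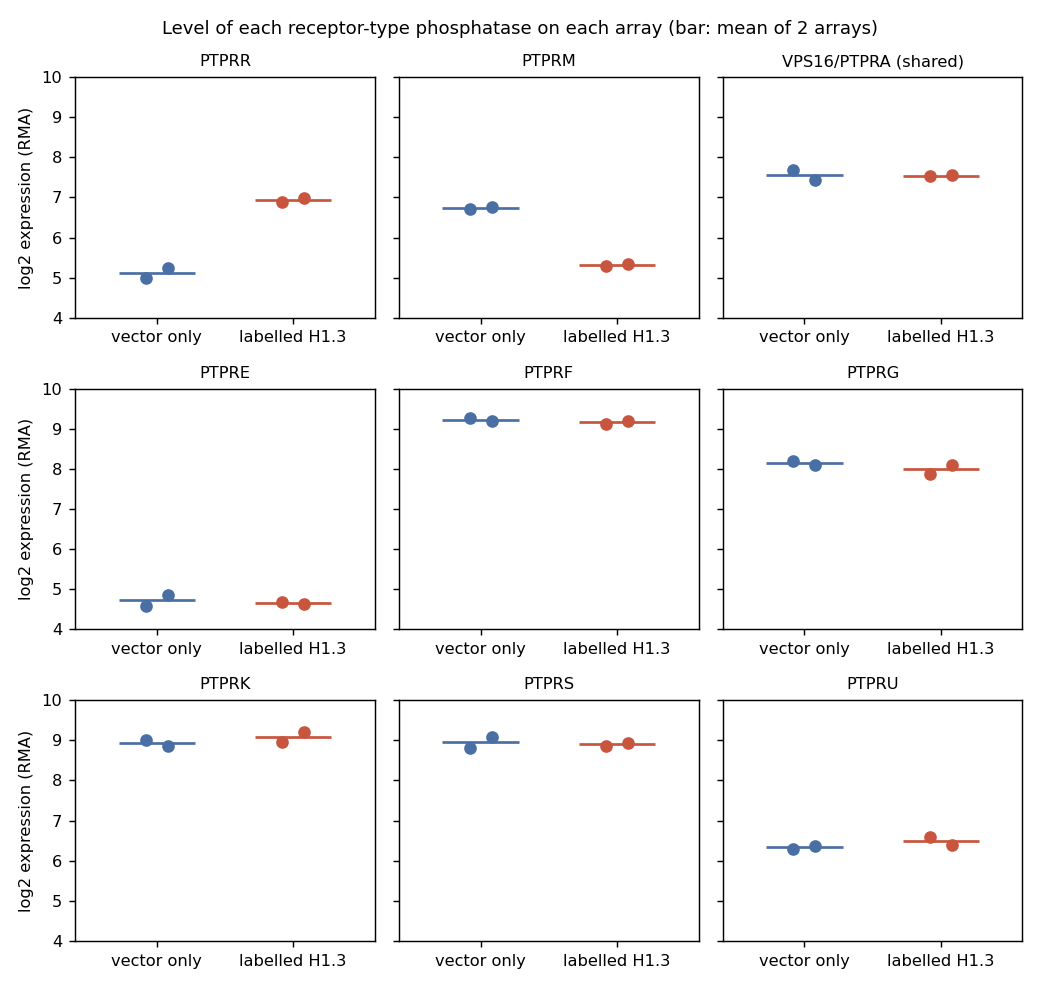
Log2 expression (vertical axis, RMA values) of the 9 measured receptor-type phosphatases on the 2 vector-only arrays (blue) and the 2 arrays labelled H1.3 (red), 1 point per array with a bar at the mean of 2. PTPRR moves from 4.99 and 5.24 to 6.88 and 6.99 and PTPRM from 6.72 and 6.76 to 5.28 and 5.35, while the points of the other 7 panels stay near one level.

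Stretches of promoter are shown for these 2 genes because they differed in opposite directions. RefSeq (GRCh38.p14) gives 3 promoter windows of PTPRR and 2 of PTPRM, and the stretch before the most upstream of these starts was taken for each. The PTPRR stretch is chr12:70788921-70789170 on the minus strand and the PTPRM stretch is chr18:7567066-7567315 on the plus strand, 250 bases each and read 5′ to 3′ up to the transcript start. Capitals mark each CG dinucleotide, the site of DNA methylation in vertebrates, which reads the same on both strands.
PTPRR: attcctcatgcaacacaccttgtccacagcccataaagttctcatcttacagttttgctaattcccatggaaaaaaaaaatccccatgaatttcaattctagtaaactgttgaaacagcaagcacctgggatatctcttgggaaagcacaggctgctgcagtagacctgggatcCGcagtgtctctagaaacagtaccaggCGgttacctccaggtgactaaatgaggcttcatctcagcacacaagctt
PTPRM: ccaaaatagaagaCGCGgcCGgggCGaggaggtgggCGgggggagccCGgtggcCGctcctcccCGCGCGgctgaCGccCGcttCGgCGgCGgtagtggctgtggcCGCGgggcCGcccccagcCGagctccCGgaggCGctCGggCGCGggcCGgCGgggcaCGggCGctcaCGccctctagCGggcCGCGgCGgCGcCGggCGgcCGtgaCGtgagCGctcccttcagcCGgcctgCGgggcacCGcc
The PTPRR stretch held 2 CG dinucleotides at a G+C content of 44.8%, and the PTPRM stretch held 42 at 81.6%.

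Among the members with a window in the same table, PTPRR alone had no window rich in CG dinucleotides. Over windows of 300 bases, of which the last 50 follow the start, PTPRR had 1 to 3 CG dinucleotides in each of its 3 windows, and the median of all 35116 windows was 14. An observed-to-expected CpG ratio of at least 0.6 was found in 48.9% of all windows. A window at or above that ratio was present for 8 of the 9 members in the table, with 50 CG dinucleotides in that of PTPRM, 55 in PTPRS, 47 in PTPRU, 44 in PTPRK, 38 in PTPRA, 37 in PTPRF, 35 in PTPRE and 34 in PTPRG. The second window of PTPRM held 2. Whether these windows cover every start of each gene, that of the full-length PTPRR receptor included, was not checked. The arrays summarise each gene as 1 value, so which start was in use was not measured, and methylation was not measured either.

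PTPRM has close relatives on the list, whose small differences were positive. PTPRK and PTPRU belong with PTPRM to the subfamily whose extracellular region begins with a MAM domain, and PTPRK, like PTPRM, binds itself across cell contacts. PTPRK measured 9.02 and 8.86 on the vector-only arrays and 8.95 and 9.21 on the H1.3-labelled arrays, with a difference of 0.14 ± 0.14 (SE). Its groups overlapped. PTPRU measured 6.30 and 6.37 on the vector-only arrays and 6.58 and 6.40 on the H1.3-labelled arrays, with a difference of 0.16 ± 0.12 (SE). The PTPRU groups did not overlap, but the nearest arrays were only 0.03 apart and its replicates up to 0.18. Both differences ran opposite to that of PTPRM and neither was called. PTPRK ranged from 0.01 to 0.27 and PTPRU from 0.065 to 0.245 when each array was left out.

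The members that bind proteoglycans, PTPRF and PTPRS, differed between the groups by less than the wider of their replicate gaps. PTPRF encodes LAR, a founding member of the family, and PTPRS encodes RPTP-sigma, a receptor for heparan and chondroitin sulfate proteoglycans. PTPRF measured 9.26 and 9.20 on the vector-only arrays and 9.13 and 9.20 on the H1.3-labelled arrays, with a difference of -0.07 ± 0.11 (SE). The highest H1.3 value equalled the lowest vector-only value. PTPRS measured 8.82 and 9.08 on the vector-only arrays and 8.87 and 8.94 on the H1.3-labelled arrays, with a difference of -0.05 ± 0.13 (SE). Both H1.3 values of PTPRS lay between the 2 vector-only values.

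The pair with short extracellular regions, PTPRA and PTPRE, gave small differences as well. PTPRA encodes RPTP-alpha, known for activating Src family kinases by removing their inhibitory phosphate, and PTPRE encodes the related RPTP-epsilon. The VPS16/PTPRA cluster measured 7.68 and 7.44 on the vector-only arrays and 7.54 and 7.55 on the H1.3-labelled arrays, with a difference of -0.02 ± 0.13 (SE). This value may hold signal from either gene. PTPRE measured 4.59 and 4.85 on the vector-only arrays and 4.68 and 4.63 on the H1.3-labelled arrays, with a difference of -0.07 ± 0.13 (SE). In both, the H1.3 arrays lay within the range of the vector-only arrays. The sign was not stable for 3 members: without vector-only replicate 1 the VPS16/PTPRA difference was 0.105, and without vector-only replicate 2 those of PTPRE and PTPRS were 0.065 and 0.085.

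PTPRG encodes RPTP-gamma, which has a carbonic anhydrase-like extracellular domain and binds contactins. It measured 8.19 and 8.11 on the vector-only arrays and 7.88 and 8.10 on the H1.3-labelled arrays, with a difference of -0.16 ± 0.13 (SE). The groups did not overlap, by 0.01 between the nearest arrays, and the replicates labelled H1.3 were 0.22 apart. Without H1.3 replicate 1 the difference was -0.05 and without H1.3 replicate 2 it was -0.27.

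Over the 9 measured members, 3 differences were positive and 6 negative, with a median of -0.05, beside a median of 0.02 over all 21214 clusters. The groups did not overlap for 4 members, where 40.6% of all clusters did not overlap. Of these, 2 were higher, as were 21.2% of all clusters, and 2 were lower, as were 19.4%. The gap between replicates, which did not enter the choice of members, ranged from 0.04 to 0.26 in the vector-only arrays and from 0.01 to 0.26 in the arrays labelled H1.3. Its median was 0.16 and 0.07 over the members and 0.13 and 0.15 over all clusters.

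**Figure D2:**
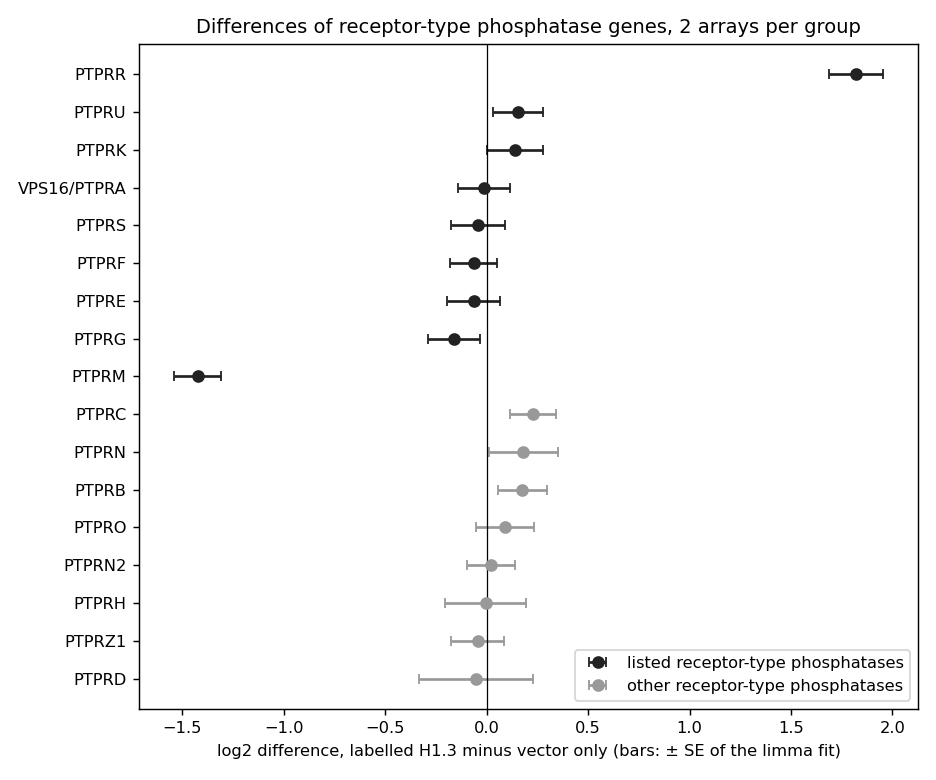
Log2 difference (horizontal axis, labelled H1.3 minus vector only, 2 arrays per group) of the 9 listed receptor-type phosphatases (black) and 8 others (grey), with bars of ± 1 SE from the limma fit. PTPRR at 1.82 and PTPRM at -1.43 lie apart on opposite sides, and all other points lie between -0.16 and 0.23.

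**Figure D3:**
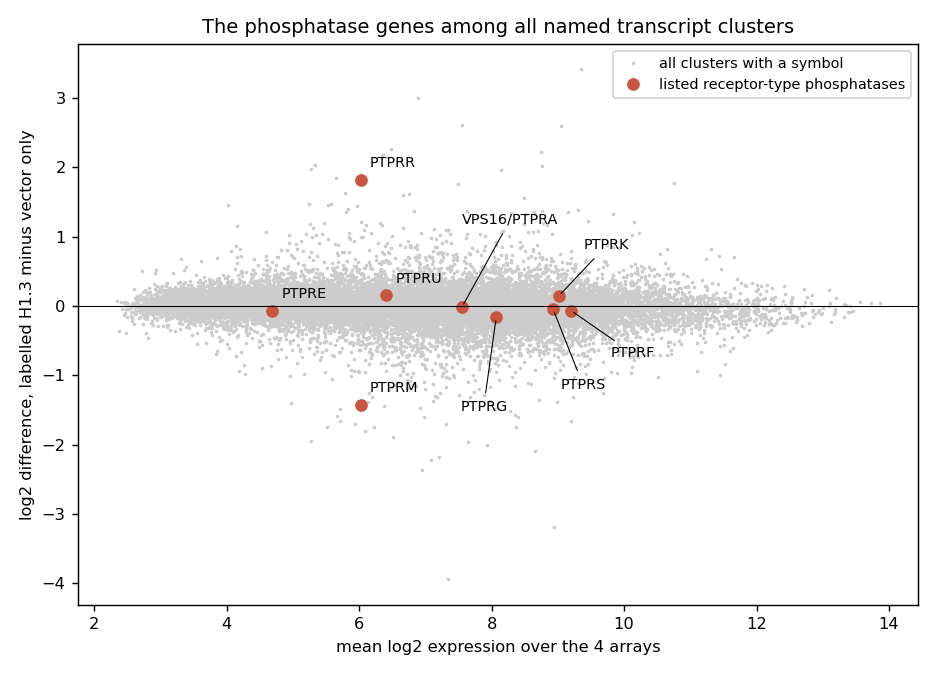
Log2 difference (vertical axis) against the mean log2 expression over the 4 arrays (horizontal axis) for all 21214 clusters with a symbol (grey) and the 9 measured phosphatases (red). PTPRR and PTPRM lie outside the dense band of clusters at a mean level of 6.03, and the other 7 lie inside it.

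No measured receptor-type phosphatase outside the list, which was drawn up with the differences known, was called. Of 10 further family genes, 8 had a cluster of their own, and their median difference was 0.06. Limma called 0 of these 8, beside 0.504% of all clusters, and 0 had an unadjusted p under 0.05, beside 11.5% of all clusters. PTPRC (CD45, the leukocyte common antigen) had the largest difference of these, at 0.23 ± 0.11 (SE) with an adjusted p of 0.516, from 3.13 and 3.19 to 3.38 and 3.40. PTPRB, the vascular endothelial member, differed by 0.18 (adjusted p 0.661) and PTPRN, a secretory granule protein without catalytic activity, by 0.18 (adjusted p 0.771). PTPRO differed by 0.09, PTPRN2 by 0.02, PTPRH by -0.01, PTPRZ1 by -0.05 and PTPRD by -0.06, with adjusted p from 0.879 to 0.994. PTPRD measured 6.78 and 6.02 on the vector-only arrays and 6.65 and 6.04 on the arrays labelled H1.3, so its replicates lay up to 0.76 apart. On average all 8 genes stood under the named-cluster median. PTPRT and PTPRQ were not analysed here.

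The chromosomal surroundings of the 2 members differed from each other. Neighbours were the nearest 15 measured genes on each side in the RefSeq gene order whose mean level was at or above 6.84. The 30 neighbours of PTPRR on chromosome 12, from HELB to E2F7, had a median difference of -0.06 and a highest difference of 0.28, so all 30 lay below PTPRR. The next neighbour after it, LGR5 (a receptor for R-spondins), differed by -1.32 ± 0.24 (SE) with an adjusted p of 0.0871, and the neighbour before it, CNOT2, by 0.07. PTPRB, the protein-coding gene just before PTPRR in that order, differed by 0.18, as given above, and TSPAN8, just after it, by 0.29 (adjusted p 0.404).

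The neighbours of PTPRM on chromosome 18 were mostly on its side. Of 29 neighbours, from USP14 to PTPN2, 25 had a negative difference, 3 a positive one and 1 a difference of 0, and the median was -0.26. Of all single-symbol genes, with no bound on their level, 45.5% had a negative difference. The lowest, NDUFV2, a subunit of respiratory complex I, differed by -0.62, so all 29 lay above PTPRM. The PTPRM difference lay -1.165 from the neighbours' median. None of these 29 neighbours was called. The part of this shift in the PTPRM difference was not tested. For the other members with a measured value, the neighbours' medians ran from -0.10 beside PTPRE to 0.04 beside PTPRA. Of the 30 neighbours of each, held to the same bound on level, 14 beside PTPRA to 22 beside PTPRE had a negative difference.

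**Figure D4:**
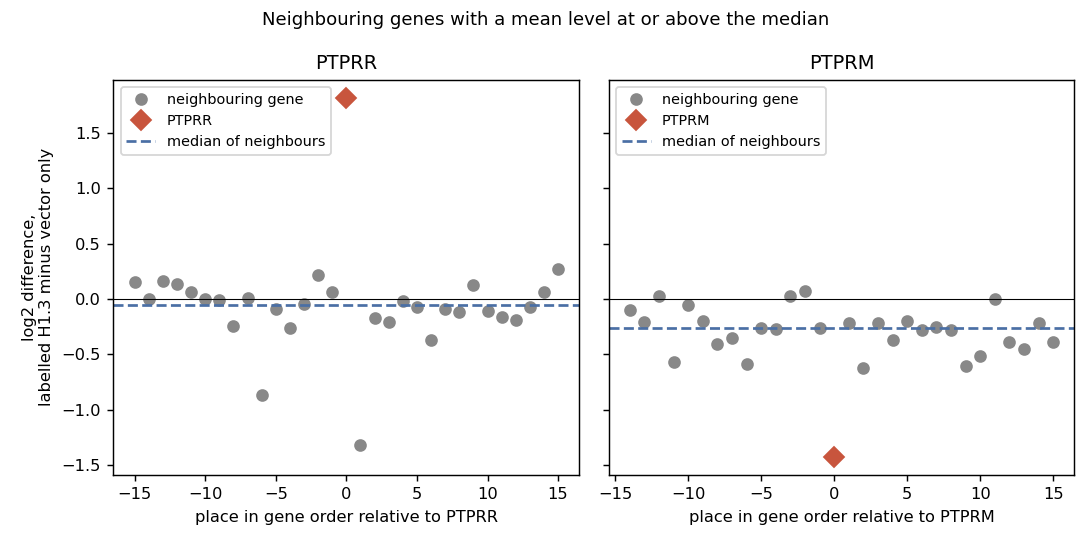
Log2 difference (vertical axis) of PTPRR and PTPRM (red diamonds) and of their neighbouring genes averaging 6.84 or more (grey), by place in the gene order (horizontal axis), with the neighbours' median dashed. PTPRR at 1.82 stands above neighbours whose median is -0.06, and PTPRM at -1.43 stands below neighbours whose median is -0.26.

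The genes whose profile over the 4 arrays was most like those of PTPRR and PTPRM were sought in the same set of genes averaging 6.84 or more, by the root mean square distance between mean-centred log2 values. Nearest to PTPRR were STXBP5, a syntaxin-binding protein (distance 0.14, from 7.18 and 7.15 to 9.16 and 9.08), GDA, guanine deaminase (0.26), and GPNMB, a transmembrane glycoprotein (0.27). Nearest to PTPRM were TMEM100 (distance 0.08, from 9.69 and 9.66 to 8.36 and 8.22), the zinc finger gene ZNF655 (0.09) and LRP2, the endocytic receptor megalin (0.14). A likeness over 4 arrays describes these arrays only.

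Genes that act with receptor-type phosphatases were taken from 11 lists of related genes, the further family genes among them. Of 162 measured genes, 1 rose and 1 fell in limma, beside the 0.504% of all clusters called in either direction, and their median difference was 0.01. Of the 162 genes, 34 (21.0%) had an unadjusted limma p under 0.05, beside 11.5% of all clusters. Among them were 7 of 21 receptor tyrosine kinases and 5 of 18 contactins and related ligands. The lists were chosen with earlier results of these data known. Nothing is read from these shares, or from those of single lists below. In the other 9 lists limma called 0 of 123 genes, with 22 at an unadjusted p under 0.05. CNTN1, contactin 1, a neural adhesion molecule that pairs with RPTP-alpha and RPTP-zeta, rose by 1.98 ± 0.20 (SE, adjusted p 0.0215), from 4.56 and 4.02 to 6.10 and 6.44. It was the only 1 of 18 contactins and related ligands to be called, and CNTN3, CNTN4, CNTN5 and CNTN6, named for their role as partners of RPTP-gamma, differed by 0.06, 0.03, 0.04 and -0.04. ERBB4, a receptor tyrosine kinase of the EGF receptor family, fell by 2.0 ± 0.30 (SE, adjusted p 0.0477), from 8.55 and 9.31 to 6.58 and 7.28. The other 20 of 21 receptor tyrosine kinases were not called. Over the list 10 differences were positive and 11 negative, with a median of -0.12. The 7 with an unadjusted limma p under 0.05, ERBB4 included, were all negative. Without variance moderation, or once quantiles were normalized again, ERBB4 was not called. With the clusters lacking a symbol tested too, CNTN1 and ERBB4 were both not called. CNTN1 averaged 5.28 over the 4 arrays, under the named-cluster median of 6.84. Leaving out any 1 array removed the calls of all clusters, CNTN1 and ERBB4 included. Once the arrays were scaled to one median, ERBB4 was not called.

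**Figure D5:**
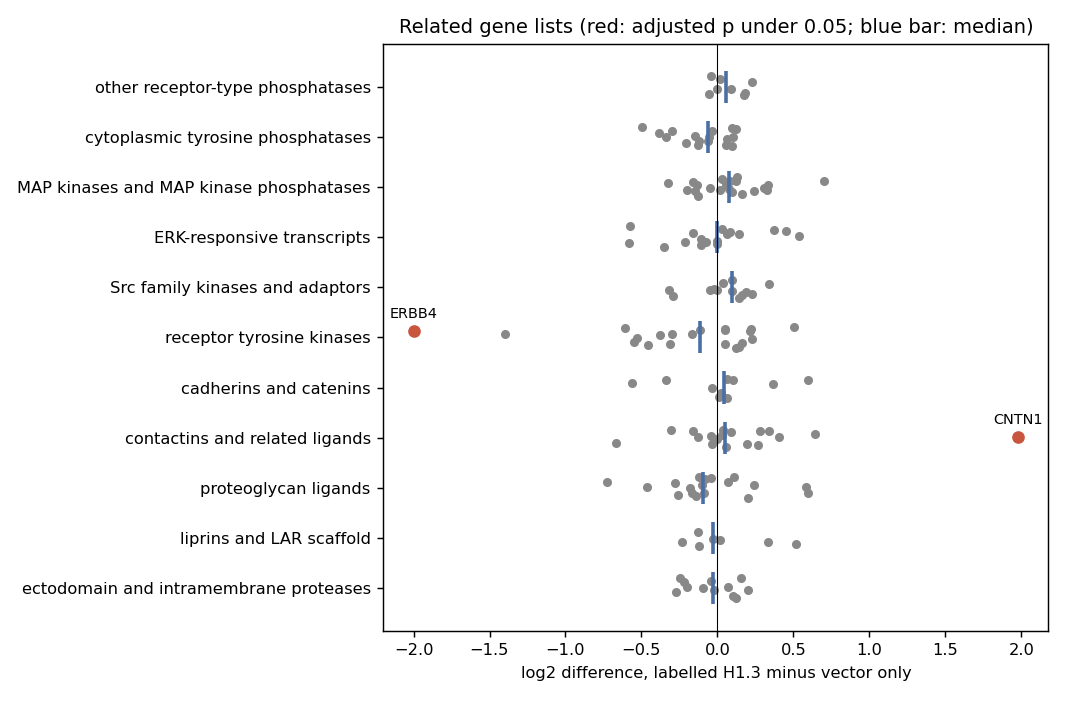
Log2 difference (horizontal axis, labelled H1.3 minus vector only) of each measured gene in the 11 related lists (rows), with called genes in red and the list median as a blue bar. The medians lie between -0.12 and 0.10, and only CNTN1 at 1.98 and ERBB4 at -2.0 are called.

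The kinases that PTPRR acts on, and phosphatases with the same kinase interaction motif, were not called. Of 21 MAP kinase and MAP kinase phosphatase genes 0 passed limma, beside 0.504% of all clusters. An unadjusted p under 0.05 was found for 5, beside the 11.5% of all clusters, and the median was 0.08. MAPK3 (ERK1), named here for its role, measured 8.24 and 8.44 on the vector-only arrays and 8.73 and 8.60 on the H1.3-labelled arrays, with a difference of 0.33 (adjusted p 0.394), and MAPK7 (ERK5) differed by 0.08 (adjusted p 0.879). ERK2 was not analysed here. DUSP10 and MAPK8, the members of that list with the smallest p, differed by 0.70 ± 0.18 and -0.33 ± 0.11 (SE), with adjusted p of 0.163 and 0.326. PTPN5 and PTPN7, named because they share the motif with PTPRR, differed by -0.06 and -0.13. Transcripts that respond to ERK signalling had a median of -0.01 over 17 genes, with 7 positive and 10 negative. By limma 0 were called and 6 had an unadjusted p under 0.05, beside 11.5% of all clusters. Groups did not overlap for 11 of the 17, beside 40.6% of all clusters. SPRY1, an inhibitor of receptor tyrosine kinase signalling, differed by -0.58 and ETV4, an ETS factor, by 0.54, with adjusted p of 0.161 and 0.210.

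Among cadherins and catenins, proteoglycan genes, and liprins and LAR scaffolds, 0 genes were called, beside 0.504% of all clusters. An unadjusted limma p under 0.05 was found for 2 of 10, 4 of 18 and 2 of 7 genes of these lists, beside 11.5% of all clusters. Of 10 cadherins and catenins the median was 0.04, with JUP (plakoglobin) at -0.34 (adjusted p 0.313) and CTNNA2 at 0.37 (adjusted p 0.330). CDH1 (E-cadherin) and CTNNB1 (beta-catenin), named for their role, differed by 0.01 and 0.03. Of 18 proteoglycan genes, 12 had a negative difference and the median was -0.09. SDC2, syndecan 2, differed by -0.73 ± 0.17 (SE, adjusted p 0.139) and GPC5, glypican 5, by 0.59 ± 0.16 (SE, adjusted p 0.182). The 7 genes of liprins and LAR scaffolds had a median of -0.03, with the actin regulator ENAH at 0.52 (adjusted p 0.244) and PPFIA3, a liprin-alpha, at 0.34 (adjusted p 0.318).

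Cytoplasmic tyrosine phosphatases had 11 negative differences among 17 genes and a median of -0.06. PTPN20 differed by -0.50 (adjusted p 0.222) and PTPN2, which also lies among the neighbours of PTPRM, by -0.39 (adjusted p 0.235). The 13 Src family kinase and adaptor genes had a median of 0.10, with SRC, named for its role, at 0.10, BCAR1, the docking protein p130Cas, at 0.34 (adjusted p 0.295) and PTK2, focal adhesion kinase, at -0.29 (adjusted p 0.465). The 12 genes for proteases that cleave receptor-type phosphatases or other surface proteins had a median of -0.03, with ADAM9 at -0.28 (adjusted p 0.603) and PCSK7 at -0.25 (adjusted p 0.499).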

How the data were processed

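Expression was measured on 4 one-colour Affymetrix arrays. The deposited values are log2 levels of 33297 transcript clusters, made by the authors with RMA, which the submitters' processing notes list beside Affymetrix Expression Console. Versions and the genome build were not found in these sources. RMA evens out the arrays' distributions, so a shift shared by most genes would be removed. The series text names an exon array, whereas the identifiers match a gene array's annotation. That annotation, updated through gene identifiers to RefSeq (GRCh38.p14; 19429 of 19460 matched), gave 1 symbol to 19460 clusters, several to 1754 and none to 12083.

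limma 3.58.1 in R 4.3.3 (lmFit, eBayes, no covariate, two-sided) was fitted over the 21214 clusters with a symbol, with Benjamini-Hochberg adjustment over all of them. The fit had 2 residual and 5.16 prior degrees of freedom. Only 2 arrays per group limit the precision, and the median SE was 0.13. Where a gene had several clusters, the one of highest mean was used. The genes named are the members, H1-3, the further family genes, passing genes of each related list or, failing these, the 2 of smallest p, the 3 genes nearest in profile, and others said to be named for their role or place. Members and lists were chosen with earlier results of these data known. The script was tested on simulated data. The planned comparison of protein sequences was not run. Figures used matplotlib 3.10.9 in Python 3.11.15.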

Additional observations from a re-analysis of the deposited data

How the results depend on the processing

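PTPRR (1.695 to 1.945) and PTPRM (-1.46 to -1.39) kept the sign of their differences in every fit that held them. Both were chosen on this difference. Fits that alter only the variance, the clusters tested or the threshold cannot change it, and nothing is read from the kept sign. Counts are given as higher then lower. Each fit lacking 1 array called 0 to 0 clusters, members and related genes in limma, puts 1292 to 2367 of them under 0.05 before adjustment, and assumes the lone array varies like the other group. Members (1 and 1) went to 0 and 0 when moderation was dropped, when unnamed clusters were added, and when clusters averaging below 6.84 were removed, a filter that takes out PTPRR, PTPRM, PTPRE and PTPRU. Clusters (51 and 56) numbered 107 and 138 under a robust trend on intensity, 6 and 3 when moderation was dropped, 29 and 38 once quantiles were normalized again, 19 and 31 when array medians were aligned, 6 and 19 when dim clusters were removed, and 1 and 3 when unnamed clusters were added. They numbered 135 and 176 for an adjusted p under 0.10 and 282 and 401 for a fold of at least 1.5 and a p under 0.05 before adjustment. Related genes (1 and 1) went to 1 and 0 when moderation was dropped, quantiles were normalized again or medians were aligned, to 0 and 0 without dim clusters or with unnamed ones, to 1 and 2 for 0.10, and to 5 and 5 before adjustment. Averaging each gene's clusters kept members and related genes at 1 and 1. The cause of these shifts was not tested. Renewed quantile normalization turned the VPS16/PTPRA difference to 0.00125. Leaving out arrays, it ran from -0.135 to 0.105, that of PTPRE from -0.195 to 0.065 and that of PTPRS from -0.175 to 0.085.

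A replicate block built from the array numbers called 0 clusters in either direction (2195 before adjustment, p under 0.05), and so 0 members and 0 related genes. The replicate gaps of the 2 groups correlated at only 0.06 across clusters, and no label ties the numbers to a batch, so the arrays were not treated as pairs.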
